A study of Komagataella pastoris with 4 samples.

Results

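Near the start of the first chromosome of *Pichia pastoris* (*Komagataella phaffii*), a yeast that grows on methanol, the deposited count table lists 5 genes in consecutive rows, BQ9382_C1-0040 to BQ9382_C1-0060. They are annotated as an isochorismatase-family hydrolase, a flavin-containing monooxygenase, a C6 transcription factor, a Rossmann-fold oxidoreductase and an allantoate permease. They were 5 of 5427 rows and stood at rows 8 to 12 of the 1657 whose locus tags place them on C1. The table gives no coordinates, strands or gene lengths, so position here means order of locus tags. The genes were picked because most of them were higher in *Dmxr1*, so their fold changes are given below as a description and are not tests of that rise.

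Both strains were histidine auxotrophs. *Dmxr1*, which is zeocin resistant, is the strain GS115 with *MXR1* disrupted by a zeocin resistance cassette, and GS115 is wild type at *MXR1*, which encodes the zinc finger transcription factor Mxr1p. Each strain was grown without further treatment in YNBE, yeast nitrogen base with ethanol, and sampled at 14 h as 2 libraries, called biological replicates in the study's methods. Since the study describes slower growth of *Dmxr1* on ethanol, a difference in growth and the loss of Mxr1p itself cannot be told apart.

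The libraries held 24140235 to 29402357 counts. The replicates differed by more than sampling noise (chi-square per degree of freedom 93.2 in *Dmxr1* and 173 in GS115). The row of *MXR1*, ACIB2EUKG772516, had 206 and 258 CPM (counts over TMM-scaled library size) in *Dmxr1*, against 287 and 405 CPM in GS115. Its log2 fold change, *Dmxr1* over GS115, was -0.58 (SE 0.21, edgeR adjusted p = 0.0787). Reads from any part of the gene left in the mutant count on this row. The counts do not show which part the reads came from, so the row neither checks nor contradicts the labels.

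In filamentous fungi and in some yeasts, genes of a catabolic or uptake pathway can lie side by side with a zinc cluster regulator of their own. Isochorismatase-family proteins are small hydrolases, and the family includes the nicotinamidase of *Saccharomyces cerevisiae*. Flavin-containing monooxygenases use NADPH and oxygen to oxidise nitrogen or sulfur atoms of their substrates. C6, or Zn(2)-Cys(6), proteins are DNA-binding regulators found in fungi, of which Gal4p of *S. cerevisiae* is the best known. Rossmann folds bind NAD or NADP. Permeases of the Dal5 type carry organic anions with protons across the plasma membrane, among them allantoate and cysteine in *S. cerevisiae*. What the *P. pastoris* genes act on is not given in the annotation.

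The transporter lies at the end of the run with the highest locus tag. BQ9382_C1-0060 (ACIB2EUKG767791) is described as an allantoate permease of the major facilitator superfamily and carries the UniRef name high-affinity cysteine-specific transporter, so its substrate is open. It had 719 and 405 CPM in *Dmxr1* replicates 1 and 2, against 124 and 144 CPM in GS115 replicates 1 and 2. The strains did not overlap, and the lower *Dmxr1* library was 2.80-fold above the higher GS115 library. The log2 fold change was 2.06 (SE 0.25), and among the genes called higher in *Dmxr1* it was number 3 by size. Genes were called where edgeR's quasi-likelihood test gave an adjusted p of 0.05 or less and the log2 fold change was 1 or more in size.

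Of the 3 genes with enzyme annotations, the putative oxidoreductase BQ9382_C1-0055 (ACIB2EUKG767790) stands next to the permease. Its description is NAD(P)-binding Rossmann-fold domains, and its KEGG entry names a 3-oxoacyl-[acyl-carrier protein] reductase. It had 135 and 72.9 CPM in *Dmxr1*, against 27.7 and 30.3 CPM in GS115. Both *Dmxr1* libraries were above both GS115 libraries, with a log2 fold change of 1.84 (SE 0.24).

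The flavin-containing monooxygenase BQ9382_C1-0045 (ACIB2EUKG767788), described as an FAD/NAD(P)-binding domain protein, had 333 and 204 CPM in *Dmxr1*, against 92.5 and 115.5 CPM in GS115. The strains did not overlap. Its log2 fold change was 1.37 (SE 0.23). Without *Dmxr1* replicate 1 this was 0.97, and the gene was no longer called.

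The isochorismatase-family hydrolase BQ9382_C1-0040 (ACIB2EUKG767787), the first gene of the run, went the other way. It had 228 and 226 CPM in *Dmxr1*, against 337 and 339 CPM in GS115. Its libraries agreed closely within each strain, with SDs of 1.20 CPM in *Dmxr1* and 1.49 CPM in GS115 around means of 227 and 338 CPM (n = 2 each). The log2 fold change was -0.57 (SE 0.18), short of the fold threshold.

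The C6 transcription factor BQ9382_C1-0050 (ACIB2EUKG767789) is a putative regulator by its annotation, and what it regulates was not tested. It had 133 and 98.7 CPM in *Dmxr1*, against 54.5 and 70.2 CPM in GS115. The lower *Dmxr1* library was 1.41-fold above the higher GS115 library. Its log2 fold change of 0.90 (SE 0.19) missed the fold threshold. It was called without *Dmxr1* replicate 2 (1.10) and without GS115 replicate 2 (1.09), and was 0.66 without *Dmxr1* replicate 1 and 0.72 without GS115 replicate 1.

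**Figure D1:**
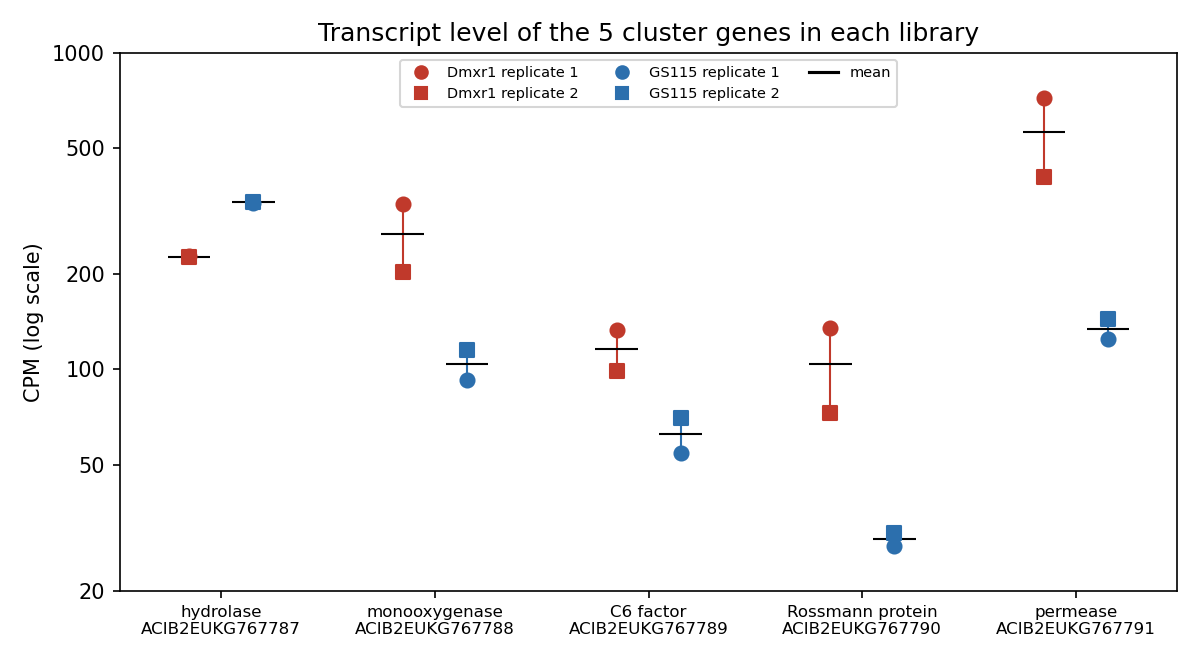
CPM on a log scale for the 5 genes of the run in locus tag order, with *Dmxr1* libraries (red) left of GS115 libraries (blue), circles for replicate 1, squares for replicate 2 and black bars for means. The permease, oxidoreductase, monooxygenase and C6 factor are higher in both *Dmxr1* libraries, at 405 to 719 CPM against 124 to 144 CPM for the permease, and the hydrolase is lower, at 226 and 228 CPM against 337 and 339 CPM.

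In all, 3 of the 5 genes were called higher and 0 lower, where 0.535% of the 5425 genes tested were called higher and 3.26% lower, or 3.8% in either direction. By adjusted p alone, 4 were higher and the hydrolase was lower, beside 5.07% and 10.5% of all genes. Both *Dmxr1* libraries lay above both GS115 libraries in 4 of the 5, as in 31.1% of all genes, and below them in the hydrolase, as in 31.3%. Since the genes were picked on this contrast, these shares describe the choice. The median log2 fold change of the 5 was 1.37, and that of all genes tested 0.0041.

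As a further description, the rows were read in locus tag order over the whole table. Of 5411 windows of 5 consecutive rows, 2 held 3 genes called higher, and both of these contain the monooxygenase, the oxidoreductase and the permease, which were picked for being higher. Windows with 3 or more genes called lower numbered 33, beside 177 genes called lower and 29 called higher in all. Neighbouring rows that were both called higher occurred 3 times. Besides the oxidoreductase and permease, a pair of rows shared the identifier ACIB2EUKG769084, and the remaining pair was ACIB2EUKG769777 and ACIB2EUKG769778.

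The genes on either side of the run were described in the same fit. They were chosen by position only, as 7 rows before and 7 rows after. The run itself was picked on this contrast, so where the higher levels begin and end describes that choice. Next to the hydrolase, the high-affinity glucose transporter ACIB2EUKG767786 had 44.4 and 36.1 CPM in *Dmxr1*, against 205 and 202 CPM in GS115. It was the only flanking row called, with a log2 fold change of -2.34 (SE 0.18, edgeR adjusted p = 1.35e-06), lower in both *Dmxr1* libraries. The row before it, ACIB2EUKG767785, has a zinc-dependent transcription factor activity in its GO text. It had 18.0 and 17.3 CPM in *Dmxr1*, against 31.1 and 32.0 CPM in GS115 (log2 fold change -0.84, SE 0.18, edgeR adjusted p = 0.00599), which passed the adjusted p alone.

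Farther out, the moderate-affinity hexose transporter ACIB2EUKG767781 had 15.8 and 16.3 CPM in *Dmxr1*, against 9.21 and 10.9 CPM in GS115 (log2 fold change 0.67, SE 0.20, edgeR adjusted p = 0.0356). The other rows before the run had log2 fold changes between -0.94 and 0.44 and did not pass the adjusted p. The outermost of them, ACIB2EUKG767780, rested on 7 to 28 counts per library.

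On the other side the higher levels ended with the permease, the last gene of the run as picked. The adjacent row, ACIB2EUKG767792, is another Zn(2)-Cys(6) protein and had 51.7 and 45.9 CPM in *Dmxr1*, against 61.6 and 61.9 CPM in GS115 (log2 fold change -0.34, SE 0.17, edgeR adjusted p = 0.174). The 7 rows after the run had log2 fold changes from -0.56 to 0.038, at edgeR adjusted p-values from 0.0876 to 0.966. Of them 0 were called by edgeR or DESeq2, where edgeR called 3.8% of all genes. An unadjusted p under 0.05 in edgeR was found for 3, all with lower means in *Dmxr1*. Over all genes tested, 13.5% had such a p with a higher mean and 18.5% with a lower one. Allantoinase, ACIB2EUKG767796, which opens the ring of allantoin to give allantoate, is among the 7 rows but had the log2 fold change of 0.038. It had 52.8 and 65.6 CPM in *Dmxr1*, against 63.3 and 52.1 CPM in GS115, and the strains overlapped.

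**Figure D2:**
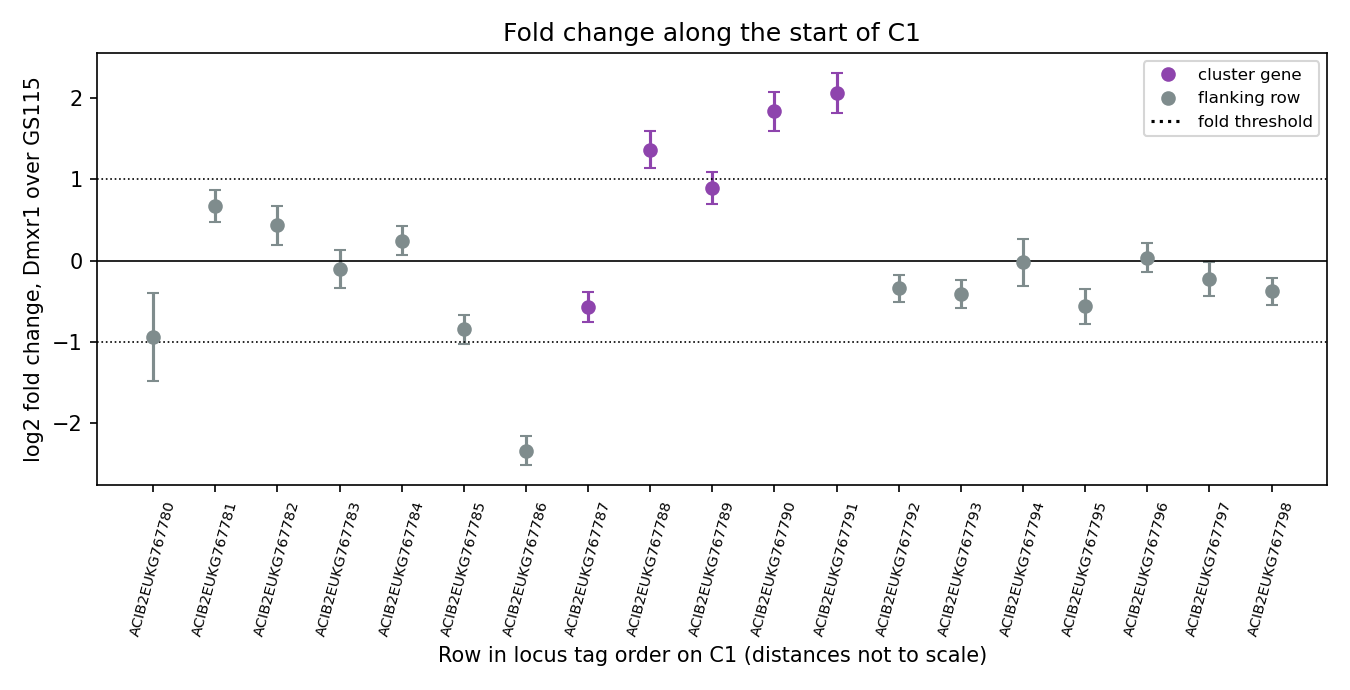
Log2 fold change of *Dmxr1* over GS115 with its standard error for the 5 genes of the run (purple) and 7 flanking rows on each side (grey), in locus tag order with distances not to scale and dotted lines at the fold threshold of 1. The values step from -2.34 at the glucose transporter and -0.57 at the hydrolase to between 0.90 and 2.06 at the next 4 genes, and back to -0.34 at the row after the permease. The run was picked on this contrast, so these steps describe the choice.

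Between the *Dmxr1* libraries the genes that were higher in *Dmxr1* all had more CPM in replicate 1. The log2 ratio of replicate 1 to replicate 2 in *Dmxr1* was 0.89 for the oxidoreductase, 0.83 for the permease, 0.71 for the monooxygenase and 0.43 for the C6 factor. Over all genes tested the quartiles of this ratio were -0.17 and 0.17. The ratio comes from the same 2 libraries on which the genes were picked as high, so its size is a description only. The hydrolase had a ratio of 0.011, close to the median of all genes, 0.0018.

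In GS115 the same ratio was negative for all 5 genes. It was -0.37 for the C6 factor, -0.32 for the monooxygenase, -0.21 for the permease, -0.13 for the oxidoreductase and -0.0090 for the hydrolase. Over all genes tested its quartiles were -0.16 and 0.24, so the C6 factor, monooxygenase and permease lay below the lower one. The replicate numbers have no order, and the ratios show only which library of a strain was the higher.

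**Figure D3:**
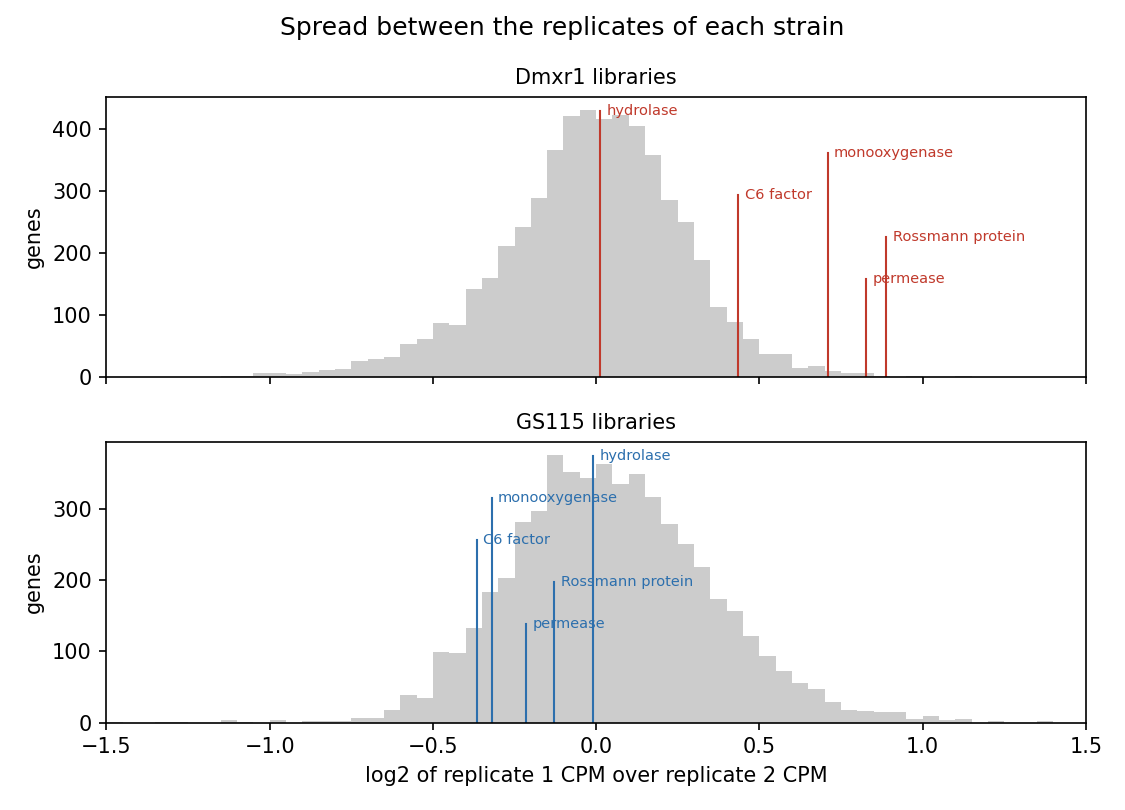
Histograms over all 5425 genes tested of the log2 ratio of replicate 1 CPM to replicate 2 CPM in *Dmxr1* (above) and GS115 (below), drawn from -1.5 to 1.5, with the 5 genes of the run as vertical lines of arbitrary height. In *Dmxr1* the C6 factor, monooxygenase, permease and oxidoreductase lie at 0.43 to 0.89 while the hydrolase lies at 0.011, and in GS115 all 5 lie at or left of the centre.

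Of the 26 other genes called higher, 19 were also higher in *Dmxr1* replicate 1 than in replicate 2, with a median log2 ratio of 0.28 and a maximum of 1.90. Among the 14 flanking rows the ratio ran from -0.81 to 0.69. The highest was that of ACIB2EUKG767780, on 12 and 7 counts in *Dmxr1*, and the next was 0.30, for ACIB2EUKG767786. Without replicate 1 of *Dmxr1* the log2 fold change was 1.59 for the permease, 1.33 for the oxidoreductase and 0.97 for the monooxygenase.

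The genes kept different proportions to each other. Reads on the permease were 5.33 and 5.56 times those on the oxidoreductase in *Dmxr1*, against 4.49 and 4.76 times in GS115. Relative to the monooxygenase the permease had 2.16 and 1.99 times the reads in *Dmxr1*, against 1.34 and 1.25 times in GS115, and relative to the C6 factor 5.38 and 4.10 times, against 2.28 and 2.06 times. These ratios depend on gene length and have meaning only between libraries. In each case both *Dmxr1* values exceeded both GS115 values, and the strains were nearest for the oxidoreductase. Since the permease had the largest log2 fold change of the run, this restates the fold changes above and is not a separate result. The hydrolase took 14.7% and 22.5% of the reads on the run in *Dmxr1*, against 53.0% and 48.5% in GS115, and the permease 46.4% and 40.2%, against 19.6% and 20.6%.

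Genes elsewhere in the genome with the same annotation as a gene of the run were then described, to see whether the higher levels extended to the families. Rows were matched by annotation text. Of 9 other permeases of the Dal5 type, 1 was called higher and 0 lower, where 0.535% of all genes were called higher. It was ACIB2EUKG769298, described as a vitamin H (biotin) transporter and named by UniRef as a nicotinic acid permease, with 294 and 214 CPM in *Dmxr1*, against 97.2 and 89.6 CPM in GS115 (log2 fold change 1.44, SE 0.20, edgeR adjusted p = 0.000313). A putative allantoate permease, ACIB2EUKG768385, passed the adjusted p alone at 0.93 (SE 0.17, edgeR adjusted p = 0.00308) and was called without GS115 replicate 2 (1.01) and without *Dmxr1* replicate 1 (1.06). ACIB2EUKG768452, named an allantoate permease by UniRef, had a log2 fold change of -0.55 (edgeR adjusted p = 0.0787). The median of the 9 was 0.34.

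The other flavin-containing monooxygenases, 5 in number, had log2 fold changes from -0.48 to 0.68, with a median of 0.020. Neither edgeR nor DESeq2 called any (0 of 5), where edgeR called 3.8% of all genes. At an unadjusted edgeR p under 0.05 there was 1, a higher one, beside 13.5% of all genes. This was ACIB2EUKG772007, at 0.68 (SE 0.25, edgeR adjusted p = 0.0793). ACIB2EUKG772858 was at -0.48 and ACIB2EUKG768511, annotated as a protein on the cytoplasmic face of the endoplasmic reticulum, at -0.27, and neither passed the adjusted p.

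The single other isochorismatase-family row was nicotinamidase, ACIB2EUKG771624, an enzyme of NAD salvage. Its log2 fold change was 0.37 (SE 0.19, edgeR adjusted p = 0.195), not called by edgeR or DESeq2.

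Zinc cluster proteins outside the run, 19 rows by their text, had a median log2 fold change of -0.083 and ran from -0.98 to 0.46. The match by text can miss such proteins, so the counts cover these rows only. The flanking row ACIB2EUKG767785, with a zinc-dependent transcription factor activity in its GO text, is not among them. The C6 factor of the run lay above all of them, but it belongs to a run picked for higher levels, so this describes the choice. Of the 19, 0 were called in either direction by edgeR or DESeq2, where edgeR called 3.8% of all genes. An unadjusted edgeR p under 0.05 was found for 2 with higher and 6 with lower means, beside 13.5% and 18.5% of all genes. By adjusted p alone 2 were lower, beside 10.5% of all genes. These were ACIB2EUKG772846 of the Gal4p family, at -0.98 (edgeR adjusted p = 0.00200), which was called without GS115 replicate 1 (-1.10), and ACIB2EUKG772413, at -0.64 (edgeR adjusted p = 0.0212). ACIB2EUKG768090 was at -0.56 (edgeR adjusted p = 0.0543).

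Rossmann-fold proteins, a group of 49 further rows with varied functions, moved in both directions, with a median log2 fold change of 0.036. Formate dehydrogenase ACIB2EUKG771003 (-1.79, edgeR adjusted p = 3.84e-05) and the aldehyde reductase ACIB2EUKG771528 (-1.03, edgeR adjusted p = 0.0207) were the 2 called lower, of 49 rows, beside 3.26% of all genes. The call of the aldehyde reductase was lost without any single library but GS115 replicate 2, and its log2 fold change was -0.49 without GS115 replicate 1. ACIB2EUKG770484 was at -0.88 (edgeR adjusted p = 0.00475). ACIB2EUKG769901, which UniRef places in peroxisomal fatty acid oxidation, was at -0.82 (edgeR adjusted p = 0.0124). Higher calls numbered 0 with edgeR and DESeq2, where edgeR called 0.535% of all genes higher. By adjusted p alone 5 were higher and 5 lower, beside 5.07% and 10.5% of all genes, and an unadjusted p under 0.05 was found for 13 with higher and 9 with lower means, beside 13.5% and 18.5%.

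**Figure D4:**
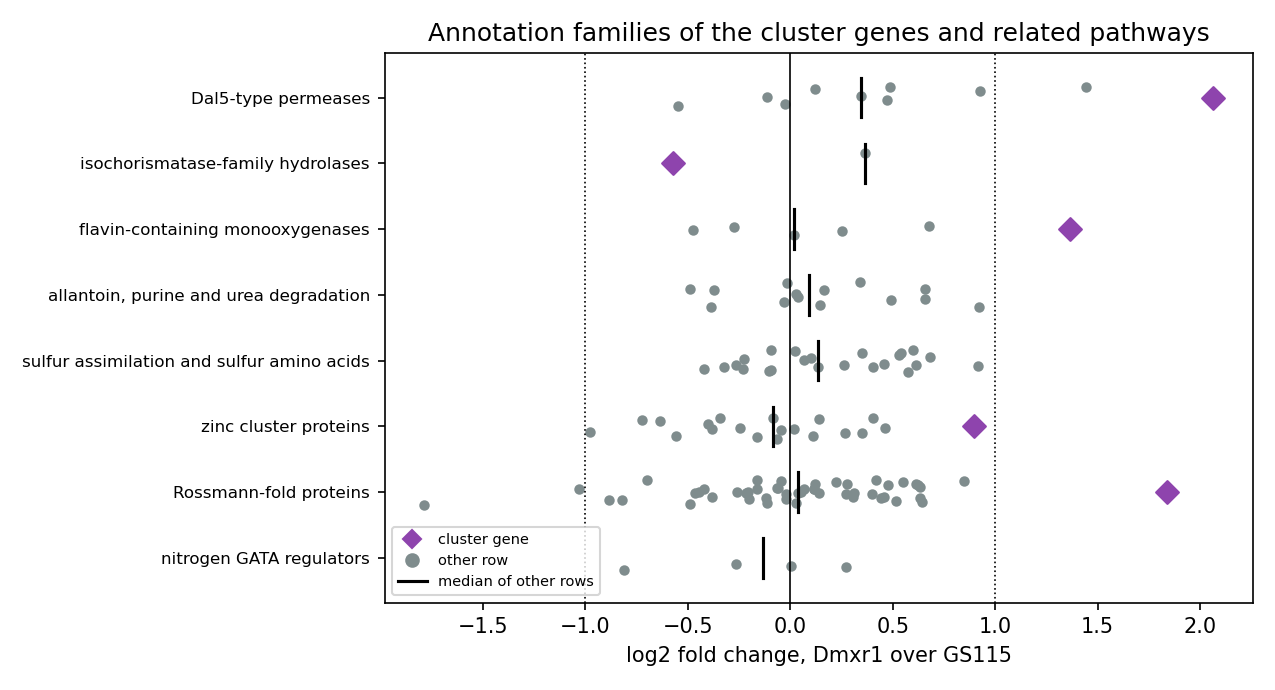
Log2 fold change of *Dmxr1* over GS115 for rows matched by annotation text to each family or pathway, with genes of the run as purple diamonds, other rows as grey points (vertical scatter has no meaning), medians of the other rows as black bars and dotted lines at the fold threshold of 1. The permease (2.06), monooxygenase (1.37), oxidoreductase (1.84) and C6 factor (0.90) lie to the right of every other row of their lists, and the medians of the other rows lie between -0.13 and 0.37. The run was picked for higher levels and the lists were not, so these places describe the choice.

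Because the permease is annotated for allantoate and for cysteine, the pathways of both were read as well. Allantoin, which arises from purines, is degraded through allantoate to urea by allantoinase, allantoicase and ureidoglycolate lyase, and urea amidolyase releases the nitrogen. Of 14 rows for this route and its transporters 0 were called by edgeR or DESeq2, where edgeR called 3.8% of all genes. An unadjusted p under 0.05 was found for 4 rows with higher and 1 with lower means, beside 13.5% and 18.5% of all genes, and by adjusted p alone 3 were higher and 0 lower, beside 5.07% and 10.5% of all genes. Urea amidolyase ACIB2EUKG772878 had a log2 fold change of 0.92 (SE 0.17, edgeR adjusted p = 0.00246), allantoicase ACIB2EUKG769932 of 0.66 (SE 0.18, edgeR adjusted p = 0.0223) and the urea and polyamine transporter ACIB2EUKG770698 of 0.66 (SE 0.19, edgeR adjusted p = 0.0287). The median of the 14 was 0.091.

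The sulfur list held 23 rows for sulfate uptake and reduction, sulfonate catabolism and the metabolism of cysteine and methionine. Of these, 0 were called by edgeR or DESeq2, where edgeR called 3.8% of all genes. An unadjusted p under 0.05 was found for 9 rows, each with a higher mean, beside 13.5% of all genes, and 4 were higher by adjusted p alone, beside 5.07%. The alpha subunit of sulfite reductase, ACIB2EUKG772656, which reduces sulfite to sulfide, had a log2 fold change of 0.91 (SE 0.20, edgeR adjusted p = 0.00729), and was called without GS115 replicate 2 (1.10) and without *Dmxr1* replicate 2 (1.01). Sulfate adenylyltransferase ACIB2EUKG768823, which activates sulfate, was at 0.68 (edgeR adjusted p = 0.0239). ACIB2EUKG770141, described as tryptophan synthase beta subunit-like and left uncharacterized by its UniRef name, was at 0.60 (edgeR adjusted p = 0.0289). The fourth, chosen after its value was seen, was ACIB2EUKG772700, a methionine and cysteine synthase by UniRef, at 0.61 (edgeR adjusted p = 0.0475). The median of the 23 was 0.14.

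Regulators of nitrogen catabolite repression and GATA factors, which in *S. cerevisiae* control allantoin genes, were counted in 4 rows. Of them 0 were called by edgeR or DESeq2, where edgeR called 3.8% of all genes. At an unadjusted edgeR p under 0.05, 1 was lower, beside 18.5% of all genes. It was ACIB2EUKG772769, at -0.81 (SE 0.20, edgeR adjusted p = 0.0127), which was called without GS115 replicate 2. *URE2*, ACIB2EUKG770720, was at 0.27 (edgeR adjusted p = 0.308) and ACIB2EUKG767907 at -0.27 (edgeR adjusted p = 0.312), and the median was -0.13.

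The rows whose levels over the 4 libraries most resembled the called genes of the run were found by the Euclidean distance of mean-centred log2 CPM from the mean profile of the permease, oxidoreductase and monooxygenase, a description over 4 values only. The nearest was ACIB2EUKG770050, a gene on C2 without a function in its annotation, at a distance of 0.29. It had 487 and 286 CPM in *Dmxr1*, against 128 and 152 CPM in GS115, so the higher library within each strain was the same as for the permease. The next were the vitamin H transporter ACIB2EUKG769298 (0.44), ACIB2EUKG772669 (0.45), annotated as an immunoglobulin A1 protease, the ammonium transporter MEP2, ACIB2EUKG768979 (0.47), and biotin synthase ACIB2EUKG767824 (0.49). By the same measure the C6 factor of the run was at 0.86 and the hydrolase at 2.35. Biotin synthase, which makes biotin from dethiobiotin, also lies on C1 and had 239 and 176 CPM in *Dmxr1*, against 77.2 and 60.7 CPM in GS115. In MEP2 the GS115 libraries, at 141 and 124 CPM, lay in the opposite order to those of the permease. The same held for biotin synthase and for the vitamin H transporter, at 97.2 and 89.6 CPM. In ACIB2EUKG772669, at 37.0 and 47.4 CPM, they lay in the order of the permease.

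The fold changes of the run were recomputed under 11 other settings. These settings reuse the libraries on which the genes were picked. They show how far the values depend on processing and are no further support for the rise. The oxidoreductase and the permease were called higher in all 11, the monooxygenase in 10 and the C6 factor in 2, and the hydrolase was not called in any of them. Over the settings the permease ranged from 1.59 to 2.42, the oxidoreductase from 1.33 to 2.22, the monooxygenase from 0.97 to 1.68, the C6 factor from 0.66 to 1.10 and the hydrolase from -0.58 to -0.49 on the log2 scale.

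**Figure D5:**
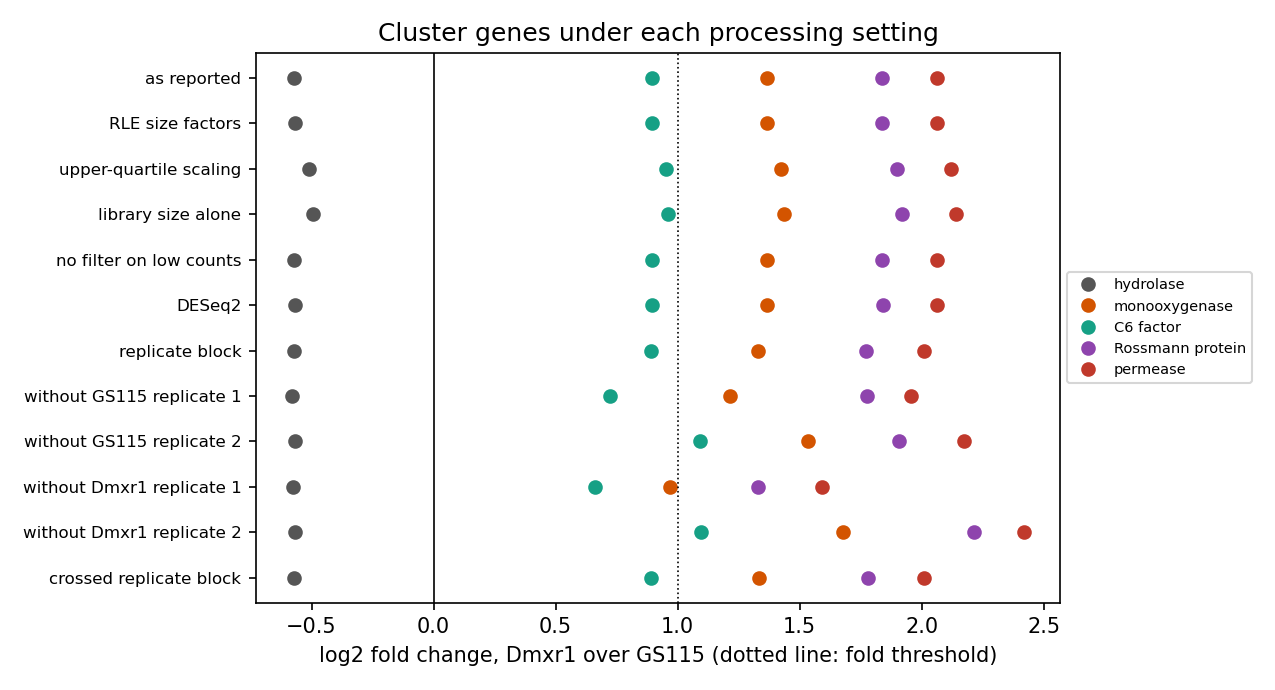
Log2 fold change of *Dmxr1* over GS115 for the 5 genes of the run as reported (top) and under 11 other settings, with a dotted line at the fold threshold of 1. The lowest values of the permease (1.59), oxidoreductase (1.33), monooxygenase (0.97) and C6 factor (0.66) are all those without *Dmxr1* replicate 1, and the hydrolase stays between -0.58 and -0.49.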

How the data were processed

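Libraries were made from total RNA after removal of ribosomal RNA, per the labels. Per the submitters' processing notes and the study's methods, reads were demultiplexed with bcl2fastq 2.19.0.316, trimmed with fastp 0.19.6, aligned with Bowtie2 to a *K. phaffii* genome and counted with featureCounts 1.6.4. The authors deposited raw read counts per gene, not normalized. How strand and multiply aligned reads were handled is not given in the sources used here. Counts of genes that overlap, lie antisense to each other or share sequence are therefore uncertain. Columns without a matching sample numbered 0.

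Rows reaching 5 counts in 2 or more libraries were tested with edgeR 4.0.16 (R 4.3.3; quasi-likelihood test, TMM, Benjamini-Hochberg over all 5425 rows tested), *Dmxr1* over GS115. Standard errors are the log2 fold change divided by the square root of F. CPM used TMM-adjusted library sizes, and log2 CPM a prior count of 2. DESeq2 1.42.0 was an alternative. The genes of the run and the lists were chosen with earlier results of these data known. The lists were matched by annotation text, and a few rows whose text named another function were left out. Named genes were the run, its flanks, the 5 nearest profiles, *MXR1*, and for each list the members called and up to 3 with the smallest adjusted p. Levels per kilobase were not computed, since the table holds no gene lengths. No sequences are shown.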

Additional observations from a re-analysis of the deposited data

How the results depend on the processing

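Precision is limited by 2 libraries per strain more than by depth, since the 5 genes of the run had 593 to 19303 counts per library. With a library left out, the lone one of its strain was assumed to vary like the other strain's. With single libraries left out, genes called lower in *Dmxr1* ranged from 94 (without GS115 replicate 1) to 290 (without GS115 replicate 2), against 177 with all libraries, and were 111 without *Dmxr1* replicate 1 and 273 without *Dmxr1* replicate 2. Genes called higher ranged from 23 (without *Dmxr1* replicate 1) to 56 (without *Dmxr1* replicate 2), against 29, and were 49 without GS115 replicate 1 and 44 without GS115 replicate 2.

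In the same settings the log2 fold change of ACIB2EUKG767788 ranged from 0.97 to 1.68, that of ACIB2EUKG767790 from 1.33 to 2.22, that of ACIB2EUKG767791 from 1.59 to 2.42 and the median of the 5 from 0.97 to 1.68. That of ACIB2EUKG767787 was -0.51 with upper-quartile scaling and -0.49 with library size alone, which moved the median of all genes by 0.063 and 0.079. Calls outside the run ranged from 1 to 2 higher for Dal5-type permeases, from 1 to 3 lower and from 0 to 1 higher for Rossmann-fold proteins, from 0 to 1 in each direction for sulfur genes, and from 0 to 1 lower for zinc cluster proteins and for GATA regulators. Rossmann-fold proteins had 1 lower with upper-quartile scaling, with library size alone and with either replicate block. Values that changed sign were those of flanks that were not called. ACIB2EUKG767794 was at 0.039 with upper-quartile scaling and 0.053 with library size alone. Without single libraries it ranged from -0.049 to 0.013, ACIB2EUKG767783 from -0.56 to 0.24, ACIB2EUKG767796 from -0.13 to 0.19 and ACIB2EUKG767797 from -0.51 to 0.019.

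Same-numbered libraries of the strains deviated with a correlation of -0.14 over genes, which gave no sign of pairing by number. With 2 libraries per strain this cannot decide whether they were paired. With the replicate number as a block 151 genes were lower and 28 higher, and with the pairing crossed, an alternative chosen after seeing the data, 169 and 29. No call within the run changed in either fit. Levels per kilobase were not run, since gene lengths are not in the table.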
